A study of Arabidopsis thaliana with 2 samples.

Results

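Among nuclear genes of the Arabidopsis leaf epidermis, 82 read at background in trichome sap and at least 4-fold higher in pavement cell sap, after the omissions given below. They were chosen by their own readings on both arrays: a trichome reading at or under a background ceiling of 2.58, and a pavement reading at least 2 higher, on the log2 scale (4-fold). The ceiling is the highest reading among 27 control probe sets for Bacillus transcripts. Above it in pavement were 2073 nuclear genes, and 1105 of these were above it in trichome too. Most of the rest, at background in trichome, differed by less than 2. Of 13356 genes measured by a probe set naming 1 gene, 13265 were nuclear by locus or chromosome, and 94 of these, or 0.709%, met both thresholds; of the probe sets without a listed gene, 1.62% did. From the 94, 7 genes that the selection names for omission and 5 loci of cytosolic ribosomal proteins were removed, which left the 82. Since the same readings chose the genes and are described below, their direction is not a finding and no test is attached to it.

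The study drew cell sap with microcapillaries from leaves of 5-week-old plants of genotype Columbia-0, the common laboratory accession, grown in chambers with long days. It has 1 trichome array and 1 pavement array. RNA from each sap was amplified in 1 round and hybridised to an Affymetrix array of 22810 probe sets. No value has a replicate and no p-value was computed, so precision is limited by having 1 array for each cell type; the labels give no number of cells or plants behind either array.

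Trichomes of Arabidopsis are large, branched, single-celled hairs that pass through several rounds of genome doubling. Pavement cells are the lobed, interlocking cells that cover most of the leaf surface. Both belong to the epidermis and both have smaller or fewer chloroplasts than the mesophyll below. Sap of a single cell type yields little RNA, so a transcript can be missed by amplification as well as by absence from the cell. In samples such as these, less of a transcript per cell and less sap or RNA cannot be told apart.

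Control probe sets did not give a single scale between the arrays. The 18 hybridisation control probe sets, for transcripts added in the usual procedure, had a median of 8.50 in trichome sap and of 11.7 in pavement sap, a difference of -3.15. The amounts added are not known here. The Bacillus controls had medians of 1.80 and 1.70, and all probe sets 2.06 and 2.03, with a median difference of 0 over all probe sets. Of the markers for other cell types, the 4 measured mesophyll genes (of 13 listed) were all above the ceiling on both arrays, from 3.67 to 3.97 in trichome and from 8.85 to 9.42 in pavement. The summed linear signal of these 4 was 56.8 in trichome and 2211 in pavement. The part of array scale and of mesophyll RNA in the pavement signals below was not tested. Markers of stomatal lineage (5 of 15 measured), epidermis (1 of 15), phloem and bundle sheath (1 of 8) and trichomes (4 of 14) were all at background in pavement. Of those 11 genes, only SIM, FAMA, SPCH and MUTE were above the ceiling in trichome. The trichome markers TRY, GIS and ATMYC1 were thus at background on the trichome array itself. There SIM read 2.79, beside 2.96 for MUTE of the stomatal lineage. The single epidermal marker measured was at background on both arrays. These few genes did not bear out either labelled cell type. None of the 82 is in a marker list, and none could be. The 4 mesophyll genes were above the ceiling in trichome, and the other 11 were at background in pavement.

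The pavement readings of the 82 genes ran from 3.58 to 8.69, with a median of 5.03 and quartiles of 4.44 and 5.65. Their trichome readings ran from 1.56 to 2.58 with a median of 2.08, close to the median of 2.06 over all probe sets of that array. The difference between the arrays had a median of 2.81 and reached 6.61. A pavement reading of 8 or more was given by 4 of the 82, one of 6 or more by 14, and one under 5 by 40. Each trichome value is at background, so a fold is written as a lower limit, the pavement reading over the ceiling. These limits ran from 1.999-fold to 69.0-fold. They are limits on the deposited scale only, and other scalings between the arrays gave smaller differences. For ECS1 the limit was 6.11 on the log2 scale. Its difference was 4.77 with quantile normalization, 3.75 with lowess and 3.41 with centring on the hybridisation controls. Each "at least" below is to be read on the deposited scale. Probe sets differ in how strongly they bind, so the order of readings is not an order of transcript amounts.

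**Figure D1:**
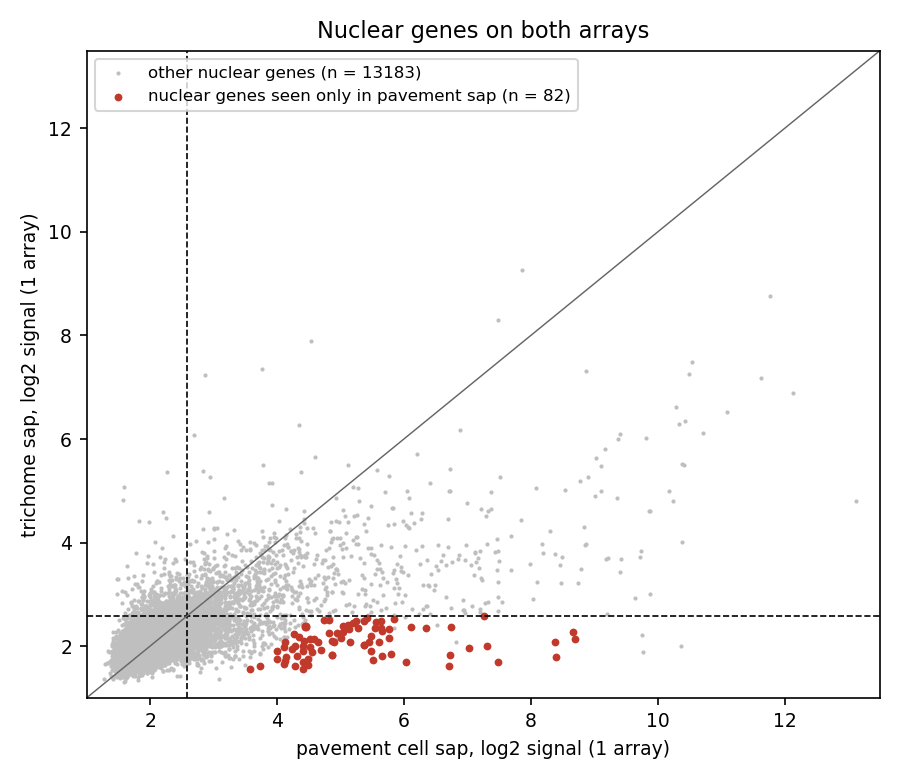
Log2 signal of nuclear genes in pavement sap (horizontal axis) and trichome sap (vertical axis), 1 array each; red points are the 82 genes, grey points the other nuclear genes, dashed lines the background ceiling of 2.58 and the solid line equal signal. The red points lie under the horizontal dashed line by selection and spread from 3.58 to 8.69 along the pavement axis.

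A background reading in trichome was the less common outcome for a nuclear gene with a pavement signal in this range. Of 351 nuclear genes with a pavement reading from 4 to 6, 256 (72.9%) were above the ceiling in trichome, and 64 of the other 95 were among the 82. Of 103 nuclear genes with a pavement reading of 7 or more, 92 (89.3%) were above the ceiling in trichome, with a median trichome reading of 3.97. The 11 that were not comprise 8 of the 82 and 3 genes left out by the selection. The selection itself fixed the trichome readings of the 8, so these shares only describe the genes around them. With the arrays exchanged, the same rule found 8 nuclear genes (0.0603%), with trichome readings from 3.80 to 5.36. A further 175 nuclear genes were at least 2 higher in pavement but above the ceiling on both arrays.

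**Figure D2:**
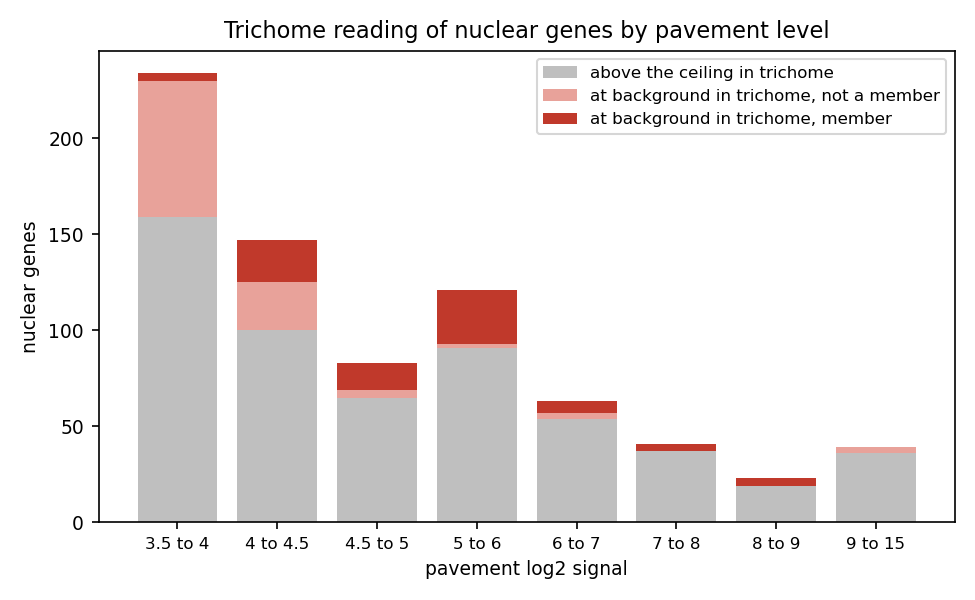
Number of nuclear genes in bands of pavement log2 signal, divided into those above the background ceiling in trichome (grey), those at background in trichome (pale red) and the genes described here (dark red). In each band grey is the largest share, 67.9% from 3.5 to 4 and 92.3% from 9 to 15.

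A name beyond a locus number was available for 26 of the 82 genes (31.7%), against 20.3% of the 714 nuclear genes with a pavement reading at or above the lowest of the 82 and 11.9% of all nuclear genes. The 26 covered chloroplast proteins, enzymes that handle aldehydes and oxidised thiols, nitrate carriers, enzymes of amino acid breakdown, and proteins of cold response, vacuole, wall and cytoskeleton. They are given by role below, with the readings of their named relatives. These families were put together from gene names after the values were seen. Measured relatives without such a name are not in them, so their counts do not cover whole families.

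**Figure D3:**
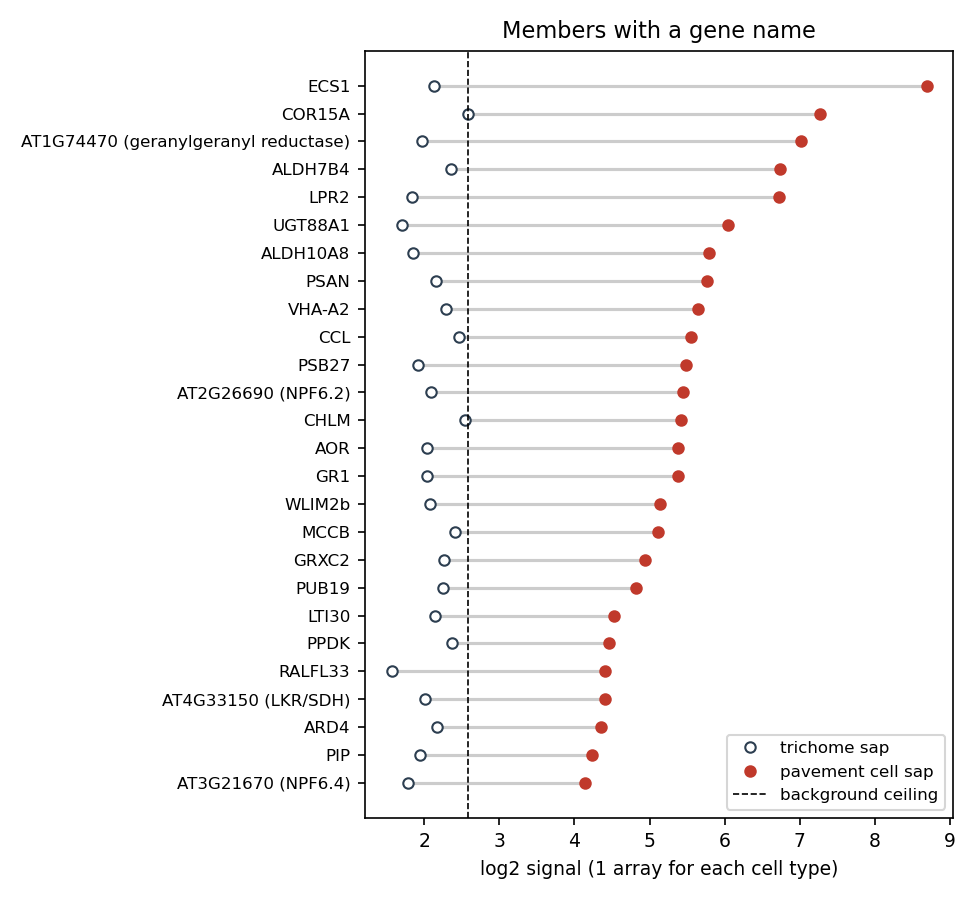
The 26 named genes with their log2 signal in trichome sap (open circles) and pavement sap (filled circles), 1 array each, ordered by the pavement reading; the dashed line is the background ceiling of 2.58. All open circles lie at or left of the line, with COR15A closest to it at 2.58, and the filled circles run from 4.14 for AT3G21670 to 8.69 for ECS1.

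Chlorophyll synthesis was represented by 2 genes. AT1G74470, the geranylgeranyl reductase that makes the phytyl tail of chlorophyll and tocopherol, read 1.97 in trichome and 7.02 in pavement, at least 21.7-fold higher in pavement. CHLM, the methyltransferase acting on magnesium protoporphyrin IX, read 2.54 and 5.41 (at least 7.12-fold), with the trichome reading just under the ceiling. Of 11 measured genes named for tetrapyrrole and chlorophyll synthesis, these were the only 2 that met the rule. PORB, which reduces protochlorophyllide, and HEMB1, of an early step, were above the ceiling on both arrays with almost equal readings, at 3.70 and 3.33 in trichome and 3.80 and 3.38 in pavement. The other 7 were at background on both.

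Of the nuclear photosystem genes, PSAN and PSB27 were among the 82, and others gave signal in both saps. PSAN, a subunit on the lumen side of photosystem I, read 2.16 in trichome and 5.77 in pavement (at least 9.11-fold). PSB27, a lumen protein that assists assembly and repair of photosystem II, read 1.91 and 5.49 (at least 7.499-fold). Of 12 measured nuclear genes named for photosystem or antenna parts or their assembly, 5 were above the ceiling on both arrays. One of these was PSBW, a small subunit of photosystem II, which read 6.88 in trichome and 12.1 in pavement. PSBY, another small photosystem II protein, read 3.504 and 3.92. The mesophyll markers given above were higher on the pavement array too, and their part in these readings was not tested.

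Enzymes that oxidise or reduce reactive carbonyls formed a further group. ALDH7B4, an aldehyde dehydrogenase induced by drought and salt, read 2.36 in trichome and 6.74 in pavement (at least 17.9-fold). ALDH10A8, of the betaine and amino aldehyde branch of the same family, read 1.84 and 5.80 (at least 9.27-fold). The alkenal/one oxidoreductase AOR, a chloroplast enzyme that reduces lipid-derived carbonyls, read 2.03 and 5.37 (at least 6.92-fold). These differ in compartment and substrate, and their trichome readings were 2.36 or less.

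The aldehyde dehydrogenase family held both patterns. Of 8 members measured, 7 were above the ceiling in pavement and 3 in trichome. ALDH3F1 read alike on the arrays, at 5.06 in trichome and 5.27 in pavement, so the family as a whole was not missing from the trichome array. ALDH10A9, the closest named relative of ALDH10A8, was also above the ceiling on both, at 2.90 and 3.99. ALDH11A3, a glyceraldehyde phosphate dehydrogenase of the cytosol, read 2.61 and 6.42 and lay outside the rule by its trichome reading alone. ALDH2C4, which was removed by name, met both thresholds with readings of 2.40 and 6.51. ALDH22A1 was at background on both arrays, and ALDH6B2 read 1.94 and 2.63.

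Thiol redox enzymes followed. GR1, the glutathione reductase of cytosol and peroxisomes, read 2.03 in trichome and 5.37 in pavement (at least 6.92-fold). Its plastid and mitochondrial counterpart, GR (also named ATGR2), was just above the ceiling on both arrays, at 2.74 and 2.96. GRXC2, a glutaredoxin that reduces disulfides with glutathione, read 2.26 and 4.94 (at least 5.13-fold), beside 2.59 and 3.73 for GRXC1. Over the wider set of 115 nuclear genes whose names hold redox terms, 7 were among the 82, which hold 26 of all 1578 named nuclear genes and 82 of all 13265. None of the 115 met the rule with the arrays exchanged, which 8 of the 13265 did. Those 8 all lack a name, so a set built from names could not be expected to hold them. The 7 were AT1G74470, ALDH7B4, ALDH10A8, GR1, AOR, GRXC2 and AT4G33150. The median difference of the 115 was 0.05, against -0.02 over all nuclear genes, and for 70 of the 115 both readings were at background. Of the other 16 sets of name terms, none held more than 2 of the 82. The search reads names only. Its photosynthesis and plastid set of 20 genes held 0 of the 82 and so missed PSAN, PSB27, CHLM and AT1G74470. These counts describe names and do not rank roles.

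GR1 and AOR, although different genes on chromosomes 3 and 1, had readings identical to 6 decimals on both arrays. Over all probe sets, at any level, 787 of 22810 (3.45%) shared both readings with another. Repeated pavement values were more frequent among the 82 than in this part of the pavement array. Of the 82 genes, 20 (24.4%) had a pavement reading that occurred on another probe set. The same held for 140 of 1640 probe sets (8.54%) at or above the lowest of the 82. Other pairs among the 82 with the same pavement reading were PSB27 with AT3G47070, AT1G07440 with AT5G47570, and LTI30 with AT3G56360. Their trichome readings differed within each pair. How these ties came about was not tested.

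Nitrogen carriers and amino acid enzymes were seen at moderate readings. AT2G26690 (NPF6.2) and AT3G21670 (NPF6.4), of the NRT1/PTR family of nitrate and peptide transporters, had trichome readings of 2.08 and 1.78 against pavement readings of 5.44 and 4.14, at least 7.26-fold and 2.95-fold higher. The other 9 measured genes found by a name of this family, GTR1 and GTR2 for glucosinolate transport among them, were at background on both arrays. Their pavement readings ran from 1.75 to 2.17. MCCB, a subunit of the 3-methylcrotonyl-CoA carboxylase of leucine breakdown in mitochondria, read 2.41 and 5.12 (at least 5.79-fold). The bifunctional lysine-ketoglutarate reductase and saccharopine dehydrogenase AT4G33150, which begins lysine breakdown, read 2.01 and 4.40 (at least 3.53-fold).

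Smaller signals came from other enzymes of amino acid and organic acid metabolism. ARD4, named for the acireductone dioxygenases of methionine salvage, read 2.17 and 4.35 (at least 3.40-fold). PIP, a proline iminopeptidase that removes proline from peptide ends, read 1.94 and 4.23 (at least 3.13-fold). PPDK, the dikinase that interconverts pyruvate and phosphoenolpyruvate, read 2.37 and 4.46 (at least 3.68-fold), a difference of 2.09 that lies just above the threshold of 2.

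Of the cold and dehydration proteins, some were at background in trichome and others were bright in both saps. COR15A, a cold-induced protein that protects chloroplast membranes during freezing, read 2.58 in trichome and 7.27 in pavement (at least 25.7-fold). Its trichome reading, the highest of the 82, was 2.576 against a ceiling of 2.583, so its inclusion rests on where the ceiling was set. COR15B, its direct neighbour on chromosome 2 and close relative, read 2.23 and 3.46, a difference of 1.23. LTI30 (XERO2), a dehydrin, read 2.14 and 4.52 (at least 3.84-fold). The dehydrins COR47 and AT1G54410 were above the ceiling on both arrays, at 6.35 and 8.77 in trichome and 10.4 and 11.8 in pavement.

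Genes of wall, vacuole, cytoskeleton and signalling made up the last named group. Where named relatives were compared, 1 gene of each family was among the 82. ECS1, a wall protein first studied in resistance to Xanthomonas, had the highest pavement reading of the 82, at 8.69 with 2.13 in trichome (at least 69.0-fold). LPR2, a multicopper oxidase that acts in the root response to low phosphate, read 1.83 and 6.73 (at least 17.7-fold), while its relative LPR1 was at background on both arrays (1.96 and 1.72). VHA-A2, an isoform of the membrane subunit a of the vacuolar proton pump, read 2.29 and 5.65 (at least 8.40-fold). The isoform VHA-A3, of the same membrane, read 2.17 and 2.997, and VHA-A1, of the trans-Golgi network, was at background on both. AT4G02620 (VHA-F), another subunit of the pump, was above the ceiling on both arrays, at 3.495 and 4.92. A probe set shared by VHA-C3, AVA-P1 and AT2G16510 read 2.55 and 6.07 and met the same thresholds, but it names several genes and was not counted.

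WLIM2b, a LIM protein that bundles actin filaments, read 2.08 in trichome and 5.15 in pavement (at least 5.91-fold), and the other 4 LIM genes measured were at background on both arrays. PUB19, a U-box ubiquitin ligase of abscisic acid and drought responses, read 2.25 and 4.82 (at least 4.71-fold). Of the 8 other plant U-box genes measured, 7 were at background on both arrays and PUB23 was barely above the ceiling in pavement, at 2.61. RALFL33, a secreted peptide of the RALF type, read 1.57 and 4.41 (at least 3.55-fold). In contrast, RALFL34 read 3.93 in trichome and 3.20 in pavement, and the other 8 RALF genes were at background on both. UGT88A1, a UDP-glucosyltransferase, read 1.70 and 6.04 (at least 11.0-fold), and of 51 such genes measured it alone met the rule; 41 were at background on both arrays. CCL, whose transcript is known for its short, clock-dependent life, read 2.46 and 5.55 (at least 7.84-fold).

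**Figure D4:**
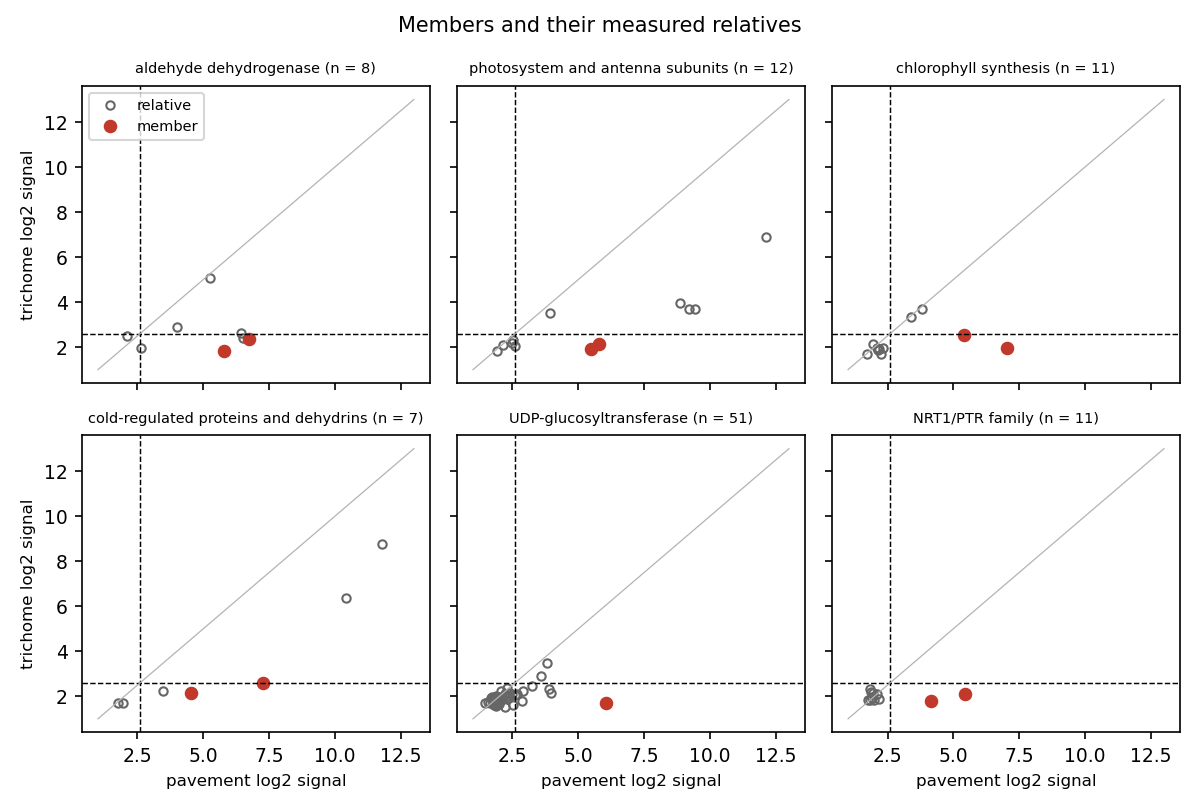
Pavement (horizontal) and trichome (vertical) log2 signal of the measured genes of 6 families, 1 array each; red points are among the 82 genes, open circles are relatives, dashed lines mark the background ceiling of 2.58 and the grey line equal signal. Aldehyde dehydrogenases, photosystem subunits and cold-regulated proteins also hold relatives above the ceiling in trichome. In contrast, the other 9 genes found by an NRT1/PTR name sit in the background corner.

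The remaining 56 of the 82 genes have no name in the tables used here beyond a locus or clone number. The highest pavement readings among them were 8.67 for AT1G55960, 8.40 for AT5G14120 and 8.38 for AT1G07650, with trichome readings of 2.28, 1.79 and 2.08. AT5G14120 had the widest difference of the 82, at 6.61. AT2G43530 read 1.69 in trichome and 7.48 in pavement (at least 29.8-fold), AT5G32450 2.001 and 7.31 (at least 26.5-fold), and AT5G53880 1.61 and 6.71 (at least 17.5-fold). These 6 genes read 2.28 or less in trichome, against the ceiling of 2.58. The reading of AT1G55960 lay above the second highest Bacillus reading of 2.21, and those of the others lay under it. For AT2G38800 the readings were 2.35 and 6.35 (at least 13.6-fold) and for AT3G51510 they were 2.37 and 6.11 (at least 11.6-fold). The next by pavement reading were AT3G12050 (2.52 and 5.84), AT5G56850 (2.32 and 5.76), AT2G45180 (1.80 and 5.65), AT3G52220 (2.49 and 5.65), AT1G70780 (2.34 and 5.64), AT5G49760 (2.08 and 5.60) and AT5G56100 (2.35 and 5.54).

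For 2 loci, nuclear origin of the signal is uncertain. AT2G07751 (2.32 in trichome and 5.13 in pavement) and AT2G07741 (1.74 and 3.99) lie near the centromere of chromosome 2, where the nuclear genome holds a large copy of the mitochondrial genome. They were also the only 2 of the 82 measured by probe sets of a type that can match several transcripts, and a nuclear and a mitochondrial transcript of the same sequence cannot be told apart there. The other 80 came from probe sets of the gene-specific type, and none of the 82 had more than 1 probe set.

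Values close to the thresholds show how the list ends. The members with the smallest difference were AT2G20670 (2.02), AT3G49220 (2.02), AT3G22210 (2.04), AT2G37110 (2.06) and AT1G29850 (2.07). Just under the threshold were AT3G04550 (1.98), AT2G07707 (1.96), AT5G02240 (1.96), AT5G03880 (1.94) and STZ (1.94). At the ceiling, the highest trichome readings inside were those of COR15A and CHLM, then AT3G12050 (2.52), AT3G25470 (2.51) and AT3G15450 (2.50). Just outside were AT4G14270 (2.60), AT3G26070 (2.60), ALDH11A3 (2.61), AT4G23670 (2.62) and AT2G42760 (2.63), and AT4G23670 had a pavement reading of 9.20. No gap separates the 82 genes from their neighbours at either threshold.

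Gene length and chromosome, which the selection did not use, were close to those of all nuclear genes, unlike the share with a name and the share of tied readings given above. The median gene length was 2120 bases for the 82 (81 with a value) and 2111 for all nuclear genes measured. Chromosomes 1 to 5 held 24, 14, 20, 9 and 15 of the 82 genes. The shares were 29.3%, 17.1%, 24.4%, 11.0% and 18.3%, against 25.8%, 16.4%, 20.6%, 14.6% and 22.6% of all nuclear genes measured. No pair among them was adjacent in the order of the nuclear genes measured. The plastid genome contributed 8 genes that met the same thresholds and were left out as organellar.

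The scale between the arrays decides how far these differences reach. If trichome readings were raised by the 3.15 of the hybridisation controls, 30 of the 82 genes would still read higher in pavement and 6 would keep a difference of 2 or more. Of the 82, 18 had a pavement reading above 5.73, the sum of the ceiling and that shift. The lowest control reading on either array was 6.88, far above the trichome readings of these genes. A background reading in trichome is thus a reading under the ceiling on 1 array, and absence of the transcript from trichomes was not shown.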

How the data were processed

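The data are 2 Affymetrix arrays of Arabidopsis thaliana, 1 of trichome and 1 of pavement cell sap. The authors deposited log2 signals made with RMA according to the submitters' processing notes. Its version, its centring and which arrays entered it are not stated; the values, from 1.28 to 14.2, were read as log2. Probe sets naming 1 gene in the platform annotation (13513 of 22810) were averaged by gene and renamed through RefSeq (TAIR10.1), where 1 of the 82 genes was not matched. A set of 6 genes with no place in either source was left out. Loci of cytosolic ribosomal proteins were taken from general knowledge, since the tables give no role.

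The thresholds, genes and lists were chosen with earlier results of these data known. Role sets were searched in symbols and synonyms, as no descriptions were at hand; promoter and protein sequences were not analysed here. Genes were named by rule: the 25 highest pavement readings, the 4 highest in a role set with at least 3, and 5 on each side of a threshold. All others with a name were added after their values were seen. The rule was tested on simulated data. Python 3.11.15, pandas 2.3.3 and statsmodels 0.14.6 (lowess, span 0.2) were used. Alternatives covered the ceiling, the difference, probe-set choice and scaling between arrays.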

Additional observations from a re-analysis of the deposited data

Results flagged for a closer look

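Signal of the same kind appeared outside the named genes. Among the 8730 plant probe sets without a listed gene, 141 (1.62%) were at background in trichome and at least 2 higher in pavement, and 10 met the rule with the arrays exchanged. Their median pavement reading was 5.18, and the brightest read 11.4 in pavement and 1.67 in trichome. Which genes they measure is not known here.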

How the results depend on the processing

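The count of 82 genes moved with each change of ceiling, difference or scale. It was 52 with the second highest Bacillus reading (2.21) as ceiling, 132 with the ceiling raised by 0.5, 297 with a difference of at least 1 and 34 with at least 3. With background readings raised to the ceiling it was 53, with quantile normalization 48, with lowess 46 and with centring on the hybridisation controls 6; all of these are among the 82. It was 83 with the highest probe set, 80 without probe sets that can match several transcripts, and 87 with ribosomal protein loci kept, an alternative chosen after seeing the data. The median difference of 2.81 became 2.44, 2.12 and 2.05 with raised background readings, quantile normalization and lowess, and -0.34 with control centring. In the first 3 of these scalings the direction held for all 82 genes by construction or value. Control centring left only 30 of the 82 genes higher in pavement. Of the 46 genes recomputed singly, which include the 25 highest pavement readings, it turned the difference for 18: CCL (-0.052), WLIM2b (-0.082), CHLM (-0.28), RALFL33 (-0.31), MCCB (-0.45), GRXC2 (-0.47), PUB19 (-0.58), AT4G33150 (-0.76), LTI30 (-0.77), AT3G21670 (-0.79), PIP (-0.86), ARD4 (-0.97), PPDK (-1.06), AT1G29850 (-1.08), AT2G37110 (-1.09), AT3G22210 (-1.11), AT3G49220 (-1.13) and AT2G20670 (-1.13). That shift adds the same amount to trichome readings at background, so these values follow from its construction. Between probe sets of a gene, the difference had a pooled SD of 0.95 over 36 genes. None of the 82 had more than 1 probe set, so this spread was not measured on them. The 18 hybridisation controls differed, trichome minus pavement, by -3.54 to -1.935. No paired analysis was possible because each group holds 1 array.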
